A study of Homo sapiens with 4 samples.

Results

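WNT ligands are secreted lipid-modified proteins that carry signals between neighbouring cells. A ligand binds a Frizzled receptor, a protein with 7 membrane passes, together with LRP5 or LRP6, the co-receptors of the branch that stabilizes β-catenin. β-catenin then acts with TCF/LEF factors at target genes, while WNT5A, WNT11 and related ligands are best known for signals that bypass it. In the developing pancreas WNT signals are known for roles in endoderm patterning and in the growth of progenitors.

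The accessibility of 31 genes was followed here: the 19 WNT ligands, the 10 Frizzled receptors (FZD1 to FZD10) and the 2 co-receptors LRP5 and LRP6, out of 20033 protein-coding genes in the annotation. The genes were taken from their family names, and all regions of open chromatin within 10 kb of a gene body were assigned to it. This gave 155 regions out of 164301 in the series, of which 7 lay within reach of 2 members. Every member had at least 1 region, from a single region at FZD1, FZD10 and WNT11 to 15 at LRP5.

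The cells were pancreatic progenitors made from MEL1, an established human embryonic stem cell line. The study's methods give the line as MEL1 INS GFP/W, with a GFP reporter at 1 allele of the insulin gene, which all libraries then share. All were grown in EF6 medium, which holds EGF, bFGF and 616452, an inhibitor of the TGF-β receptor kinase. The control libraries received DMSO, and the others received 1 μM I-BET151, an inhibitor of BET bromodomain proteins, for 7 days (EF6I medium). There were 2 ATAC-seq libraries per condition from 50000 cells each, and the labels do not say whether they came from separate cultures, so each p-value measures the spread between these libraries, which may be technical. All of them go back to 1 cell line.

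ATAC-seq inserts adapters into open chromatin with the Tn5 transposase, so that peaks of reads mark accessible DNA. Each peak carries a fold enrichment, which is the pileup, that is the reads stacked at its summit, over the local background. Peaks of the 4 libraries that overlapped by 1 bp or more were merged into regions. A region was called shared when all 4 lists held a peak in it, gained when both I-BET151 lists and no DMSO list did, and lost when both DMSO lists and no I-BET151 list did. The percentile of a region is its position by fold within its own list, with 100 at the top. The start-site region of a gene overlaps the 500 bp on either side of its main (canonical) GENCODE start. Other annotated starts of a gene do not enter the start-site counts.

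The lists differed in length and in depth. The DMSO lists held 82568 and 38295 peaks from 38.7 and 36.6 M reads. After I-BET151 there were 84995 and 111324 peaks from 12.5 and 16 M reads. DMSO replicate 2 therefore stood apart by its short list, and results that turn on it are given with and without it. Among cell type markers, the start-site region was shared at 5 of 7 pancreatic progenitor genes (NKX6-1, SOX9, FOXA2, GATA4 and GATA6). The share over all protein-coding genes was 52.3%. ONECUT1 had a start-site peak in DMSO replicate 1 and in both I-BET151 lists. PDX1 had one only in the I-BET151 lists, as had PDGFRB of the mesenchymal genes and KDR of the endothelial genes. No list held a start-site peak at POU5F1, NANOG or DPPA4, while LIN28A, the remaining pluripotency gene, had one in all 4. The start-site region was shared at 0 of 5 endocrine genes, 0 of 3 endothelial genes, 1 of 6 mesenchymal genes (TWIST1), 1 of 4 liver genes (APOA2) and 2 of 3 intestinal genes (VIL1 and CDX2). Accessibility is not expression, and RNA was not analysed here.

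Sequences of 3 promoters are given first, since they set the CG content of open start sites beside that of a start site without a peak. They are the 250 bases before the start, from RefSeq (GRCh38.p14, plus strand), with each CG dinucleotide in capitals. FZD1 (chr7:91264183-91264432) had the highest start-site fold of the members in all 4 lists, FZD9 (chr7:73433528-73433777) had a peak only after I-BET151, and WNT3A (chr1:228006748-228006997) had none in any list.
FZD1: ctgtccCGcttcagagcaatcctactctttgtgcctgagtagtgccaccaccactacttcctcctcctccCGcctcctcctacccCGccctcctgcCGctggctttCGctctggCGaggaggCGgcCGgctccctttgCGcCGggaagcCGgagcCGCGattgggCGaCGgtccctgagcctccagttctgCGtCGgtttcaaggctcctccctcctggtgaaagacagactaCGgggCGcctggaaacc
FZD9: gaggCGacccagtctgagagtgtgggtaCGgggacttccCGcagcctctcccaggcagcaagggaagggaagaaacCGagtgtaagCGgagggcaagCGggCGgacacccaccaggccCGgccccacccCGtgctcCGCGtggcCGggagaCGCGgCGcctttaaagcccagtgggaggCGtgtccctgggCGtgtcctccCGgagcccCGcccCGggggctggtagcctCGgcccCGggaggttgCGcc
WNT3A: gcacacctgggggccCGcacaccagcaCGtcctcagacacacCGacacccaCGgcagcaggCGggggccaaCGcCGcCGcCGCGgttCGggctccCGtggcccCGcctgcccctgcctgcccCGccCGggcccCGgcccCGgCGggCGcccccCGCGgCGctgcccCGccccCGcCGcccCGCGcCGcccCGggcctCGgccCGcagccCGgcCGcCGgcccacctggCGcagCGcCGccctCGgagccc

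The WNT3A promoter held 38 CG dinucleotides, the FZD9 promoter 23 and the FZD1 promoter 19. Of the 35116 RefSeq promoters, 3.28% held as many as WNT3A, 25.8% as many as FZD9 and 34.6% as many as FZD1. A RefSeq promoter at the same start was matched for 22 of the 31 members. The 16 WNT promoters among them held 3 to 44 CG dinucleotides with a median of 29, and the 5 Frizzled promoters held 19 to 33 with a median of 24. The median over all RefSeq promoters was 11. Most of these start sites are thus rich in CG, and the median was not lower for the WNT promoters than for the Frizzled promoters.

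The start sites of Frizzled receptors were open in both conditions, and those of WNT ligands were called in few lists or none. The start-site region was shared at 8 of 10 Frizzled genes, at 1 of the 2 co-receptor genes (LRP6) and at 0 of 19 WNT genes. Among all protein-coding genes 52.3% had a start-site region called in all 4 lists. With DMSO, at least 1 list held a start-site peak at 8 of 10 Frizzled genes and at 2 of 19 WNT genes, against 60.0% of all genes. GC content around the starts was alike in both families, with a median of 76.2% for the Frizzled genes (69.3% to 79.4%) and 75.4% for the WNT genes (45.3% to 84.0%), against 64.7% over all genes. The 10 WNT genes with no start-site peak in any list had a median of 75.6% and the 8 Frizzled genes with a shared region 74.7%. Fewer open cells and a less open site in each cell cannot be told apart in such bulk libraries.

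FZD1 (ENSG00000157240, chr7:91264433-91271326), a receptor of the β-catenin branch, had its only region over the start site (chr7:91263583-91265225, summit 36 bp before the start). Its fold was 7.79 and 8.73 in the DMSO lists and 12.6 and 14.4 in the I-BET151 lists, from 52, 67, 82 and 185 reads. The fold was higher in both I-BET151 libraries, but the percentile was 96.2 and 96.1 with DMSO and 95.8 and 96.9 with I-BET151, so that its place in the lists overlapped between the conditions. The median fold of a whole list was 3.88 and 4.08 with DMSO and 5.56 and 6.03 with I-BET151, and for this reason the comparisons below are made on ranks.

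The other Frizzled start sites lay lower. FZD8 (ENSG00000177283), a receptor of canonical WNT signals, had a region at chr10:35641844-35642808 with folds of 5.18, 6.41, 8.50 and 10.2 in DMSO replicates 1 and 2 and I-BET151 replicates 1 and 2, in that order, as in all that follows. FZD5 (ENSG00000163251), which is used in early endoderm and in the intestine, had 5.75, 6.22, 9.91 and 8.09 at chr2:207769315-207770428. Their percentiles ran from 81.1 to 86.8 and from 71.6 to 88.1, and DMSO and I-BET151 overlapped at FZD5 and at FZD8.

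FZD6 (ENSG00000164930), a receptor tied to planar cell polarity, had folds of 4.83, 5.49, 9.28 and 9.88 at chr8:103298329-103299584, over its first intron and start. At FZD4 (ENSG00000174804), which also binds the ligand norrin, the folds were 4.67, 4.81, 5.70 and 7.57 in a region of 1832 bp (chr11:86955003-86956834) that extends into the divergent lncRNA FZD4-DT. FZD7 (ENSG00000155760), a receptor known from human embryonic stem cells, had 4.66, 3.56, 7.14 and 6.92 at chr2:202032661-202034186. Its DMSO libraries differed from each other more than its I-BET151 libraries did, with percentiles of 74.1 and 32.3 against 70.6 and 60.6.

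At FZD3 (ENSG00000104290), a receptor of axon guidance and cell polarity, the folds were 4.03, 3.69, 5.02 and 5.38 at chr8:28493819-28494697, in the 5′ UTR of exon 1. FZD2 (ENSG00000180340), a receptor that takes WNT3A and WNT5A, had the weakest shared start site with DMSO, with folds of 3.74 and 3.22, and 7.95 and 8.35 with I-BET151 (chr17:44556574-44557578). Its percentile was 44 and 19.2 with DMSO and 77.5 and 73.9 with I-BET151, higher in both I-BET151 lists than in either DMSO list. The same order held by a smaller margin at FZD6 (76.2 and 78 against 85.2 and 83.5), and the opposite order at FZD4 (74.2 and 68.3 against 52.2 and 67.3). These percentiles rank all peaks of a list. Ranked among the shared regions only, as further below, FZD6 overlapped between the conditions, while FZD2 and FZD4 kept their order.

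FZD9 and FZD10 were the exceptions among the receptors. FZD9 (ENSG00000188763, chr7:73433778-73436120), a receptor known from neural and bone cells, had no start-site peak with DMSO and folds of 7.76 and 6.26, from 24 and 33 reads, with I-BET151 (chr7:73433543-73434043, summit in the 5′ UTR of exon 1, 24 bp after the start). These peaks ranked at the 75.8 and 52.2 percentiles of their lists, well above the faintest calls. FZD10 (ENSG00000111432), a receptor with low levels in most adult tissues, had a single peak of fold 3.61 and 6 reads in I-BET151 replicate 1 (chr12:130162820-130163140, in the coding part of exon 1) and none in the other 3 lists.

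Of the co-receptors, LRP6 (ENSG00000070018, chr12:12116025-12267044), needed for WNT and β-catenin signalling in the embryo, had a start-site region at chr12:12266150-12267603 in all 4 lists. Its folds were 6.91, 7.18, 6.31 and 9.29. LRP5 (ENSG00000162337, chr11:68312591-68449275), best known from bone mass and retinal vessels, had a start-site peak in I-BET151 replicate 2 alone, with a fold of 4.90 from 13 reads (chr11:68312451-68312810). The GC content around its start was 85.0%, the highest of the members, against 72.1% at LRP6.

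Among the ligands, 2 start-site regions were gained. WNT7A (ENSG00000154764), a ligand of limb and nervous system patterning, had folds of 5.21 and 4.66 at chr3:13880511-13881086, with its summit 712 bp before the start. WNT5B (ENSG00000111186), a ligand close to WNT5A, had 3.68 and 3.33 at chr12:1629491-1630043, with its summit in intron 1. Neither had a DMSO peak. All 4 peaks were modest, from 9 to 19 reads, at percentiles of 45.4 and 26.3 for WNT7A and 7.75 and 5.06 for WNT5B. Together with FZD9, this made 3 gained start-site regions among 31 members (9.68%), against 7.19% of all protein-coding genes, and 0 were lost.

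The remaining ligands with a start-site peak had it in a single list. It was in I-BET151 replicate 1 for WNT2 (fold 3.61) and in I-BET151 replicate 2 for WNT2B (4.03), WNT5A (2.42), WNT9B (5.88) and WNT10B (4.34). DMSO replicate 1 held the peaks of WNT8A (3.10) and WNT16 (3.62). No list held a start-site peak at WNT1, WNT3, WNT3A, WNT4, WNT6, WNT7B, WNT8B, WNT9A, WNT10A or WNT11. WNT2B had another, more distant start of its own: the region chr1:112465924-112466577, 42661 bp before the main start and over the first base of the gene, was shared, with folds of 5.41, 4.56, 10.9 and 8.79. Other annotated starts also lay in a gained WNT3 region (chr17:46771007-46771633, folds 4.29 and 3.77) and a gained WNT5B region (chr12:1631130-1631647, 4.51 and 6.02). So did starts in a further WNT3 region and a WNT10A region, called in 1 list each (3.76 and 3.57). A shared region in intron 22 of LRP5 (chr11:68446812-68447584) likewise overlapped an annotated LRP5 start.

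The contrast between the families was also seen at other settings. It is given as shared Frizzled start sites and as WNT start sites with a DMSO call, which are unlike measures. The share over all genes is not given at these settings, and a stricter cut can lower both counts. With only peaks of −log10 p of at least 5, the threshold of the methods, 8 Frizzled start sites were shared and 1 WNT start site had a DMSO call. At −log10 p of at least 10 the numbers were 5 and 0, and with lists cut to equal length 8 and 0. Without DMSO replicate 1, which alone held both WNT calls, 0 WNT start sites had a DMSO call.

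Over all their regions, the members gained peaks with I-BET151 at close to the rate seen across the genome. Of the 155 member regions, 20 were shared (12.9%), 26 gained (16.8%) and 7 lost (4.52%). Over all merged regions the shares were 15.6% shared, 17.0% gained and 2.37% lost, and among regions within 10 kb of any protein-coding gene 16.3% were gained and 2.29% lost. The gained share was thus close to background. The lost share was above it, on 7 regions at 4 genes. A further 83 regions were called in 1 list only, 60 of them in an I-BET151 list.

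The families differed here too, in part through the same start sites. WNT loci held 92 regions, of which 6 were shared (6.52%), 19 gained (20.7%) and 4 lost. Frizzled loci held 40, of which 11 were shared (27.5%), 2 gained and 0 lost. The co-receptor loci held 23, of which 3 were shared, 5 gained and 3 lost. Of the 11 shared Frizzled regions 8 were the start-site regions counted above, so the shared part of the contrast largely repeats that result. At least 1 gained region lay at 13 of 19 WNT genes, 2 of 10 Frizzled genes and both co-receptor genes, in all 17 of 31 members (54.8%) against 50.7% of all genes with a region. At least 1 lost region lay at WNT2, WNT3, WNT5B and LRP5, 4 of 31 (12.9%) against 13.5%. These shares differ little from the background, and the difference between the families is a description without a test.

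**Figure D1:**
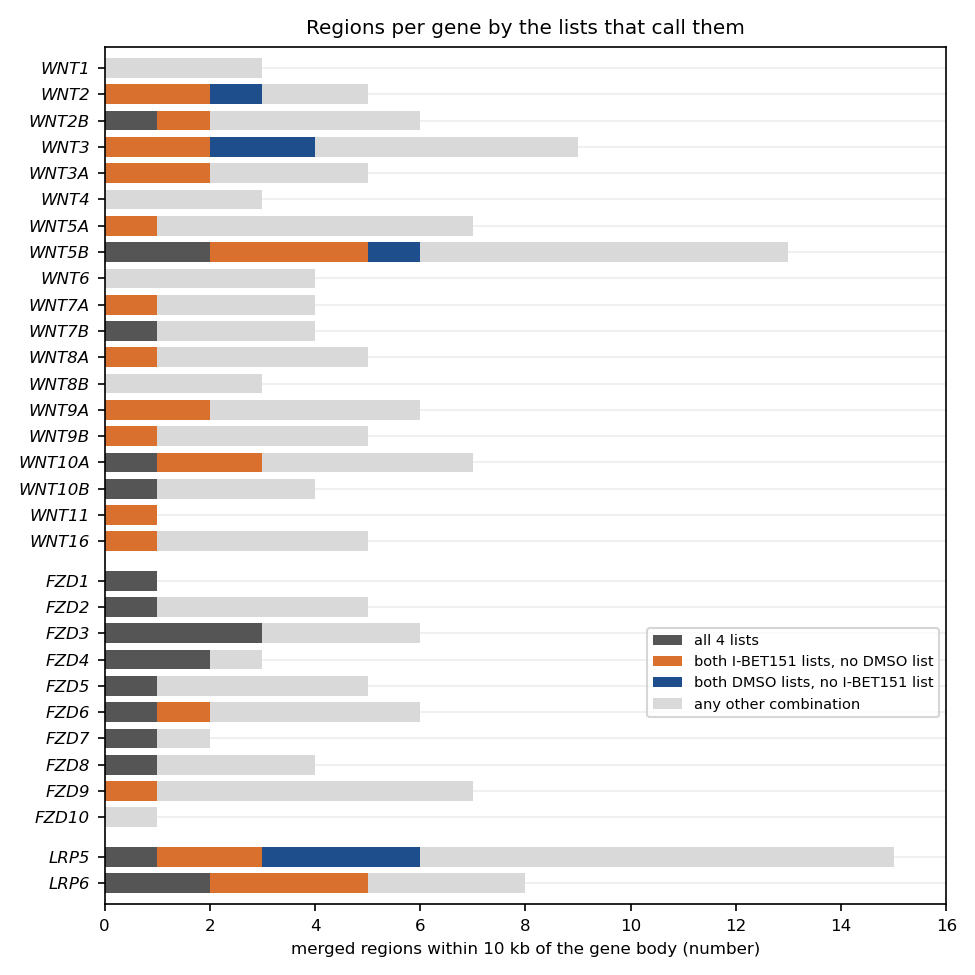
Number of merged regions within 10 kb of each gene body (x axis) for the 31 genes (y axis), with the colours of the bars giving the lists that called them. Shared regions (dark) are found at FZD1 to FZD8, at 5 of 19 WNT genes and at both co-receptor genes. Gained regions (orange) are found at 13 of 19 WNT genes, 2 of 10 Frizzled genes and both co-receptor genes.

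The strongest gained region, by the lower of its 2 folds, lay in intron 5 of LRP6 (chr12:12182739-12183378), with folds of 11.8 and 9.45 from 35 and 37 reads. It stood at the 94.3 and 81.1 percentiles of the I-BET151 lists. The region also lies within the body of BCL2L14, which overlaps LRP6. LRP5 held the next, in its intron 5 (chr11:68374018-68374581, folds 7.64 and 8.04), and another in intron 1 (chr11:68328353-68328725, 7.43 and 6.85). WNT2B had a gained region 6897 bp before its main start (chr1:112501870-112502572, 6.87 and 8.30), and WNT9A one in intron 1 (chr1:227946446-227947161, 7.07 and 6.61), 1055 bp from its start. WNT2B and WNT9A, both ligands of the β-catenin branch, therefore gained peaks beside starts that themselves had no DMSO peak.

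The lost regions were weaker. The strongest lay within the annotated bodies of both WNT5B and FBXL14 (chr12:1574271-1574609), 54747 bp before the main WNT5B start. Its folds were 4.01 and 4.48, from 29 and 33 reads. LRP5 lost a region 9713 bp before its start (chr11:68302578-68303044, folds 4.07 and 3.38) and one in intron 1 (chr11:68325249-68325597, 4.72 and 3.37). WNT3, a ligand of gastrulation, lost 2 regions in intron 1 (chr17:46800459-46800819, 3.32 and 3.15, and chr17:46782164-46782805, 2.87 and 3.14). LRP5 therefore lost and gained regions within the same intron.

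Counts of gained and lost regions moved with the lists compared. With lists cut to equal length, 9 member regions were gained (15.5%, against 9.19% of all regions). Without I-BET151 replicate 1 there were 65 (48.5%, against 43.7%), and without I-BET151 replicate 2 there were 48 (40.3%, against 35.8%). Without DMSO replicate 1 there were 31 (23.1%, against 26.8%), and without DMSO replicate 2 there were 28 (18.3%, against 18.3%). The member share was thus above the background at some settings and not at others. Without DMSO replicate 2 there were 28 lost regions (18.3%, against 20.9%), without I-BET151 replicate 2 there were 11 (9.24%, against 5.82%), and at −log10 p of at least 10 there were 2 (3.28%, against 0.269%).

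Sequences of 4 regions with a motif match are given because they are gained or shared member regions that hold a CTCF or TCF/LEF match. They are the 201 bases around the summit (hg38, plus strand) with the match in capitals. A gained region 6735 bp before WNT8A (chr5:138077198-138077398) and a gained region between WNT3 and the main start of WNT9B (chr17:46835918-46836118) hold a CTCF match. A shared region in intron 22 of LRP5 (chr11:68447260-68447460) holds another. The gained WNT5B start-site region (chr12:1629563-1629763) holds a TCF/LEF match, CTTTGAA, and so does a gained region in intron 2 of LRP6, not printed.
WNT8A, gained: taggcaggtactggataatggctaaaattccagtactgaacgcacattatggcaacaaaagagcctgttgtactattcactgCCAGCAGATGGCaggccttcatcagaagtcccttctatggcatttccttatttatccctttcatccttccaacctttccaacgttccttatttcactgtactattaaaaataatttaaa
WNT3 and WNT9B, gained: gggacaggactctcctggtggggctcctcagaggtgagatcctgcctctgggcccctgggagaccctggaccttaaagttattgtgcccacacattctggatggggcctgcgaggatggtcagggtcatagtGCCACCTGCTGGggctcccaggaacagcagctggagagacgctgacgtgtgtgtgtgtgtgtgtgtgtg
LRP5, shared: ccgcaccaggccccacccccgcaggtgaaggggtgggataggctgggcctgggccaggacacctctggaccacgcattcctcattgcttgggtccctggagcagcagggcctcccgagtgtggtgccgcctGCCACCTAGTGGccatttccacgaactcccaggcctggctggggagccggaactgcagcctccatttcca
WNT5B, gained: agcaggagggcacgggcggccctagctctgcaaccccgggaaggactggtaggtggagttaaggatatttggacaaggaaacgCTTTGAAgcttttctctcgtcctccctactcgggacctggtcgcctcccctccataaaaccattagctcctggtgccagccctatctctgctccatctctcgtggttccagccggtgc

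CTCF is the architectural protein at chromatin loop anchors, and TCF/LEF factors are the nuclear end of WNT signalling. Exact matches were searched on both strands within 100 bp of the summit. The TCF/LEF letters CTTTGAA or CTTTGAT were found in 11 of 155 member regions (7.10%) against 7.48% of all regions, and in 2 of 26 gained member regions against 8.13% of all gained regions. The CTCF consensus was found in 5 member regions (3.23%) against 1.79%, and in 2 of the 26 gained against 3.96%. The GATA letters AGATAA were in 13 member regions (8.39%) against 14.3%. The FOXA letters TGTTTAC were in 4 (2.58%) against 4.56%, and the ONECUT letters ATCAATA in 3 (1.94%) against 3.46%. ATCAATA shares ATCAA with the reverse complement of CTTTGAT. All these are counts of letters, too few for a statement on any factor.

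Folds at the WNT8A region were 5.2 and 8.74 with I-BET151, at the WNT3 and WNT9B region 5.91 and 3.97, and at the LRP5 region 3.36, 2.63, 6.30 and 7.32. The WNT8A region was thus the stronger of the 2 gained regions with a CTCF match in I-BET151 replicate 2 and the weaker in replicate 1.

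The 20 shared member regions allowed a test of rank. Folds were ranked within each library among all 25627 shared regions, turned into normal scores, which have a mean of 0 and an SD near 1, and compared with limma. Benjamini-Hochberg adjustment ran over all shared regions. Across the genome 875 regions (3.41%) moved up in rank with I-BET151 and 503 (1.96%) moved down. Of the 20 member regions limma called 0 up and 1 down, with 7 at an unadjusted p under 0.05, against 24.9% of all shared regions.

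The region that fell was the LRP6 start site. Its percentile was 93.4 and 91.2 with DMSO and 62.4 and 80.2 with I-BET151, without overlap. The rank shift was −1.43 ± 0.386 (SE) normal scores, with an adjusted p of 0.0443 by limma. The reads at the summit numbered 41, 47, 24 and 63. The call was close to the threshold: it was lost without DMSO replicate 1 (adjusted p 0.193), DMSO replicate 2 (0.319) or I-BET151 replicate 1 (0.118) by limma, with ranks by −log10 p (−1.21, adjusted p 0.144 by limma) and with centred pileup (−0.69, 0.103). Over the alternatives in which it fell, its adjusted p by limma ran from 0.00823 to 0.319, and with uncentred pileup it was higher (1.24, adjusted p 0.00595 by limma). In the same gene, a shared region in intron 2 (chr12:12240690-12241400) had folds of 5.17, 6.25, 12.1 and 11.3 and a rank shift of 0.26 ± 0.417, within its SE.

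The largest shift in the other direction was in intron 3 of WNT7B (chr22:45923798-45924540), a ligand of branching epithelia, whose folds were 3.78, 3.69, 9.48 and 12.1. Its percentile was 45.3 and 37.9 with DMSO and 86.2 and 92.4 with I-BET151, and the pileup was 39, 37, 46 and 89 reads. The shift was 1.33 ± 0.380 with an adjusted p of 0.0531 by limma, just short of the threshold. It passed with −log10 p of at least 5 (adjusted p 0.0469 by limma), with −log10 p of at least 10 (0.00205) and with lists of equal length (0.0211), and was then the 1 region moved up. On the centred pileup scale its shift was only 0.24 (0.464), and over all alternatives its adjusted p by limma ran from 3.98e-06 to 0.464. No list held a peak at the WNT7B start site itself.

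The next 3 regions had positive shifts that did not pass the adjustment. Intron 7 of FZD3 (chr8:28561775-28562281) had folds of 3.62, 3.61, 8.26 and 11.4 and a shift of 1.18 ± 0.385 (adjusted p 0.0798 by limma). A region downstream of WNT10A (chr2:218908774-218909643) within the lncRNA LINC01494 had 3.51, 3.51, 8.27 and 9.90 and a shift of 1.10 ± 0.379 (0.0929). The LRP5 region in intron 22 shifted by 1.16 ± 0.415 (0.104). Each of them had a higher percentile in both I-BET151 lists than in either DMSO list. On the centred pileup scale their shifts were 0.32 and 0.24 for FZD3 and WNT10A, and the LRP5 region turned to −0.50.

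Over the 9 start-site regions among the 20, 8 stood lower in rank with I-BET151 and 1 (FZD2) higher, with a median shift of −0.41. With centred pileup 3 were lower and 6 higher. The shift of FZD2 was 0.87 ± 0.385 (adjusted p 0.177 by limma), and those of FZD4, FZD3, FZD5 and FZD8 were −0.78, −0.67, −0.66 and −0.41. FZD1, FZD7 and FZD6 lay at −0.24, −0.10 and −0.03, each within its SE. Of the 11 regions elsewhere 7 were higher and 4 lower, with a median of 0.26. Over all genes 53.6% of the shared start-site regions and 50.4% of those elsewhere stood lower. The start of a neighbouring gene lay within 3 of the 11: FBXL14 near WNT5B (chr12:1593959-1595190, −0.97 ± 0.395, adjusted p 0.143 by limma), FBXO16 near FZD3 and ARF3 near WNT10B, and these 3 were all lower.

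**Figure D2:**
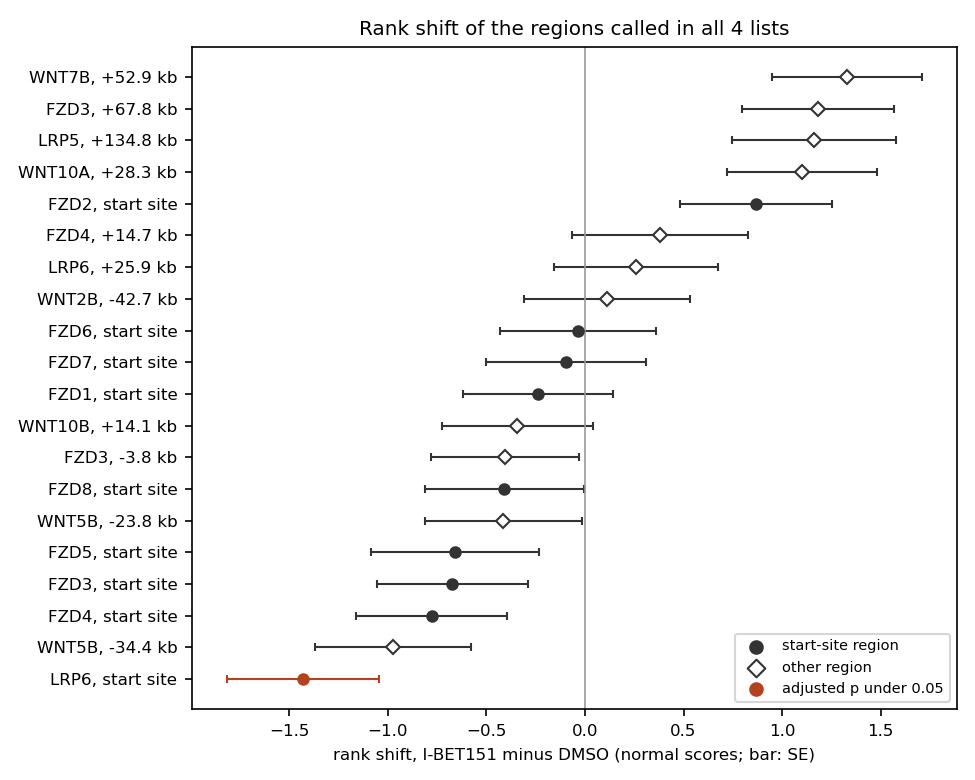
Rank shift of the 20 member regions called in all 4 lists (x axis, I-BET151 minus DMSO in normal scores, with bars for the SE), labelled by gene and by distance from the start (y axis). Ranked by fold, start-site regions (filled) lie to the left except FZD2, an order that centred pileup did not keep (3 lower, 6 higher), and LRP6 alone passed the threshold of 0.05.

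Ranks leave out a shift that a whole library shares. Pileup scaled to sequencing depth was higher with I-BET151 over all shared regions, by a median of 1.9 on the log2 scale, and on that scale all 20 member regions were higher, including the LRP6 start site (1.24). Centred on the median of each library, LRP6 stood at −0.69 (adjusted p 0.103 by limma) and FZD8 at −0.02, and FZD2 turned to −0.45. FZD4, FZD3, FZD5, FZD1, FZD7 and FZD6 turned to 0.22, 0.12, 0.30, 0.55, 0.48 and 0.50. Of the 9 shared start sites 3 were thus lower and 6 higher on that scale, and with ranks by −log10 p 4 were lower and 5 higher. The lower ranks of most Frizzled start sites, none of which passed the threshold, were thus seen with ranks by fold only. LRP6 was lower on each of these scales except uncentred pileup.

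A locus score, the mean percentile of all regions of a gene with 0 for a region not called, put gains, losses and rank together. Over the 31 members the mean score was 17.9 and 11.9 in the DMSO lists and 23.9 and 30.2 in the I-BET151 lists. This is 14.9 ± 4.22 against 27.1 ± 4.43 (SD, n = 2 each), a difference of 12.2 that is larger than the spread between replicates. An exact permutation test of 2 against 2 libraries cannot go below p = 0.333 (two-sided), so its p says nothing here. The gain was general: the median difference was 12.3 over the members and 10.8 over all genes with a region, of which 81.5% were higher. With lists cut to equal length by −log10 p the mean difference was −2.23, so the sign depended on the setting. Between the replicate 1 libraries, whose lists were of similar length, it was 6.06, and without DMSO replicate 2 it was 9.22. The cause of the reversal was not tested.

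Scores stood higher in both I-BET151 lists than in either DMSO list at 19 of 31 members (61.3%), against 50.9% of all genes, and lower at 0, against 3.68%. The 19 were 14 of 19 WNT genes, 3 of 10 Frizzled genes (FZD4, FZD6 and FZD9) and both co-receptors. The median difference was 13.7 for WNT genes, 2.49 for Frizzled genes and 15.1 for the co-receptors. With lists of equal length 4 members were higher without overlap and 6 lower, against 24.8% and 25.7% of all genes. Without I-BET151 replicate 1 there were 29 higher and 1 lower, against 71.7% and 5.19%. Without I-BET151 replicate 2 there were 20 and 2, against 55.7% and 10.2%. Without DMSO replicate 1 there were 25 and 0, against 84% and 4.22%. Without DMSO replicate 2 there were 20 and 1, against 51.5% and 24.5%.

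WNT7B had the largest difference, with scores of 12.4 and 9.47 with DMSO and 42.1 and 48.6 with I-BET151. WNT8B, a ligand of the forebrain, followed with 10.1 and 0 against 39.1 and 31.6, from 3 regions none of which was shared or gained. At WNT9A the scores were 2.37 and 4.72 against 24.3 and 31.8, and at WNT4, a ligand of kidney and gonad development, 0.242 and 0 against 27.6 and 15.3. WNT11, with its single region 2576 bp before the start, had 0 and 0 against 24.2 and 18. WNT1, the founding ligand of the family, and WNT6 had no DMSO peak at all within 10 kb. WNT1 also had none in I-BET151 replicate 1, and its score of 29.1 rested on 3 peaks in I-BET151 replicate 2 alone. All 3 were also assigned to the neighbouring WNT10B, among them the WNT10B start-site region.

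At the other end FZD1 scored between 95.8 and 96.9 in every list, far above any other member, as its only region is the strong start site. FZD5 (26.8 and 22.1 against 23.1 and 21.5) and FZD2 (26.4 and 23.5 against 21.2 and 28.5) were the 2 members whose mean was lower with I-BET151, by less than the spread between replicates. WNT3, WNT5B and WNT9B differed by 2.47, 2.42 and 3.14, and of these only WNT3 did not overlap.

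**Figure D3:**
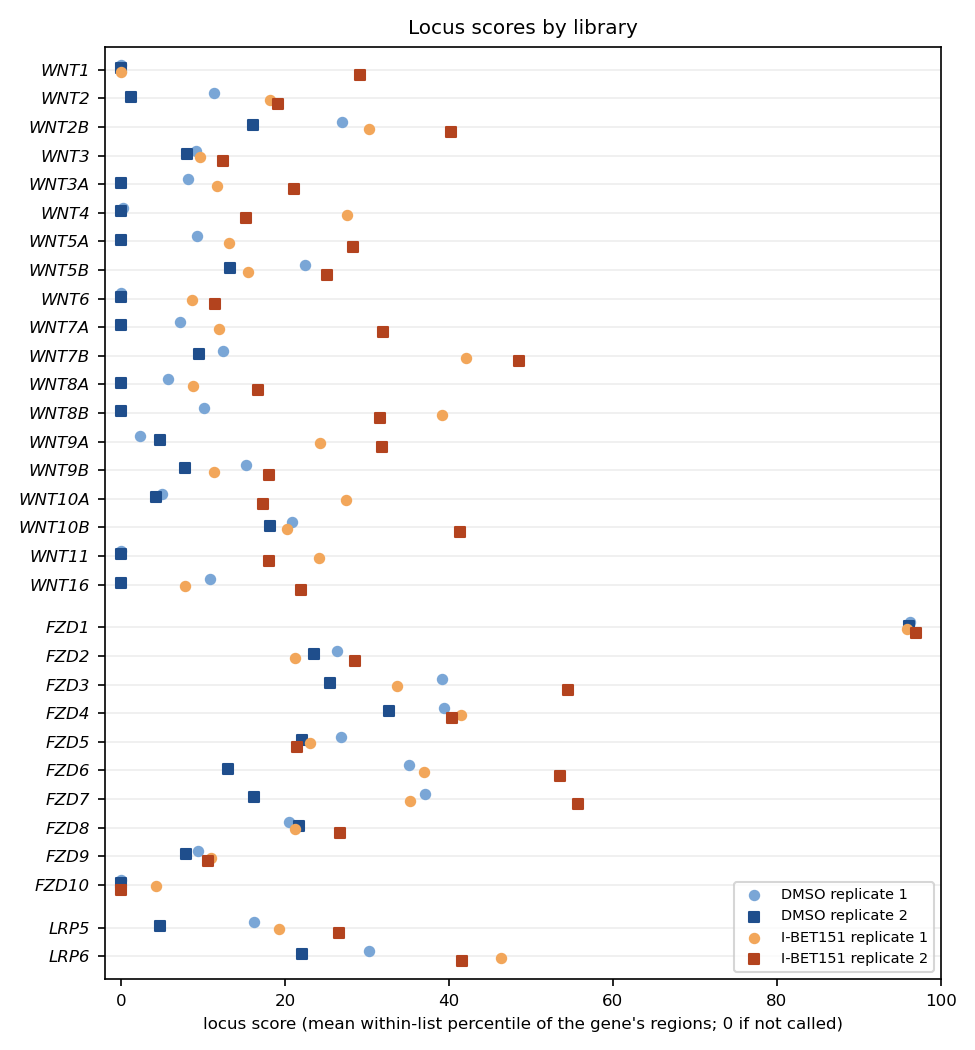
Locus score of each of the 31 genes (y axis) in each library (x axis, mean within-list percentile of the regions of the gene, from 0 to 100). The I-BET151 points lie to the right of the DMSO points at 19 genes, and FZD1 is above 95 in all 4 libraries.

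The rest of the pathway, 40 genes from secretion to nuclear factors, was counted by the same measures. The start-site region was shared at 23 of 40 genes, against 52.3% of all protein-coding genes. By role this was 5 of 6 nuclear factors, 7 of 9 cytoplasmic transducers, 3 of 4 other receptors, 1 of 2 genes of WNT secretion (WLS, the carrier of WNT proteins), 7 of 15 secreted inhibitors and 0 of 4 R-spondins. The 4 R-spondins thus lay with the WNT ligands, and nuclear and cytoplasmic parts with the Frizzled genes, as counts without a test. The secreted inhibitors, at 7 of 15, lay between them, and a link of these counts to secretion was not tested. A gained start site was found at 4 of 40 genes, against 7.19% of all protein-coding genes. Gained start sites were those of RSPO2 (folds 4.96 and 5.18), which enhances WNT signals, SFRP1 (6.34 and 4.43), a secreted WNT antagonist, DVL2 (4.38 and 5.03), which relays Frizzled signals, and LEF1 (3.45 and 3.36), a nuclear partner of β-catenin.

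Of the 400 regions at these genes 79 were gained (19.8%) and 9 lost (2.25%), and limma called 4 of the 79 shared regions up (5.06%) and 0 down. Over all regions 17.0% were gained and 2.37% lost, and 3.41% of the shared regions moved up and 1.96% down, so these shares lie near the background. The TCF7 start site (TCF7 is another partner of β-catenin) had folds of 2.81, 2.52, 6.75 and 7.61 and a shift of 1.83 ± 0.384 (adjusted p 0.0183 by limma). The others lay away from the starts of SFRP5 (1.84 ± 0.395, 0.0204), ROR2 (1.54 ± 0.381, 0.0326) and PTK7 (1.42 ± 0.391, 0.0468). ROR2 and PTK7 are co-receptors of the branch that does not use β-catenin. None of the 9 member start sites that could be tested, FZD1 to FZD8 and LRP6, passed in that direction. No ligand start site could be tested.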

How the data were processed

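ATAC-seq was deposited as 1 peak list per library (2 DMSO, 2 I-BET151). The authors aligned reads to hg38 with Bowtie2 (2.2.5) and called peaks per library with MACS2 (2.1.2). The deposited columns hold fold enrichment (a ratio of pileup to local background), −log10 of the p-value and q-value, and a display score that was not used. The lists reach a q-value of 0.05, whereas the methods state p of 1e-05, a setting tried as an alternative.

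Pileup was solved from fold and p-value (tolerance 0.01 in −log10 p) in 100% of peaks, and depth from the genome background with the MACS2 genome size of 2700000000. For the depth, the read extension was taken as the shortest peak of a list. It was 200 bp in both replicate 1 lists, 233 bp in DMSO replicate 2 and 256 bp in I-BET151 replicate 2. The effect of this difference was not tested. Reads are not independent molecules, and counting error is not in the SD. Peaks on the 22 autosomes and on X and Y were merged with Python 3.11.15, pandas 2.3.3 and numpy 2.4.6, and annotated with GENCODE release 44. Ranks were fitted with limma 3.58.1 (R 4.3.3) without a replicate block, at an adjusted p under 0.05. The steps were tested on simulated data.

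Regions given in full were each start-site region, each region past the rank test, and, by the lower of their 2 folds, the top 5 gained and top 5 lost regions. WNT7B, the other unadjusted calls, extremes of the locus score and regions with a motif were singled out after their values were seen. Members and lists were chosen with earlier results of these data known. Same-numbered libraries deviated with a correlation of −0.143, and the labels do not say whether they were made together. A marker gene of the pancreatic progenitor list is not reported here.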

Additional observations from a re-analysis of the deposited data

How the results depend on the processing

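Alternatives were −log10 p of at least 5 or 10, lists of equal length (the shortest, by −log10 p), a distance of 5 kb, peaks covering 50% of a region, ranks by −log10 p, scaled pileup with and without centring, a replicate block and leaving out each library. Alternatives for the start-site counts and the crossed pairing were chosen after seeing the data. Regions moved up numbered 1 at −log10 p of at least 5, at 10 and with equal lengths, 4 under the crossed pairing and 20 with scaled pileup, where 3.56%, 6.36%, 5.11%, 7.75% and 96% of all shared regions moved up. Regions moved down numbered 0 with ranks by −log10 p, scaled pileup and centred pileup, where 0.105%, 0.0624% and 4.65% moved down. Other counts moved at −log10 p of at least 10 (2 lost regions, 5 Frizzled start sites, mean locus score difference 18) and with equal lengths (9 gained regions, 10 members without overlap of which 6 were lower, difference −2.23). WNT start sites with a DMSO call numbered 1 at −log10 p of at least 5 and 0 at 10 and with equal lengths.

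The LRP6 start site shifted by −1.21 with ranks by −log10 p, −0.69 with centred pileup and 1.24 with scaled pileup. With scaled pileup the shift also turned positive for WNT5B near FBXL14 (1.11) and the start sites of FZD4 (2.15), FZD3 (2.05), FZD5 (2.23), FZD8 (1.91), FZD1 (2.48), FZD7 (2.41) and FZD6 (2.43), since the median of all regions then moved by 1.9. Leaving out 1 library gave 28 to 65 gained regions, 7 to 28 lost, 0 to 1 moved up, 0 to 2 moved down, 8 Frizzled start sites, 0 to 2 WNT start sites with a DMSO call, 21 to 30 members without overlap, a mean difference of 9.22 to 20 and an LRP6 shift of −1.62 to −1.15. Over all genes with a region, 51.5% to 84% were then higher without overlap and 4.22% to 24.5% lower. In these fits a lone library of a condition was assumed to vary like the other condition.

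In the paired fit, with replicate number as the block, the LRP6 start site shifted by −1.43 (adjusted p 0.0413 by limma), 0 regions moved up, 1 moved down and the mean difference was 12.2, so the block changed no call. The cause of these changes was not tested, and the depth of 12.5 to 38.7 M reads limits what a missing peak shows.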
